A study of Mus musculus with 5 samples.

Results

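The 10 genes described here encode tumour necrosis factor (Tnf), TRAIL (Tnfsf10) and 8 receptors of the TNF receptor superfamily, Tnfrsf1a, Tnfrsf1b, Tnfrsf10b, Tnfrsf12a, Tnfrsf22, Tnfrsf23, Fas and Eda2r. They were picked by gene symbol from 19938 genes measured, with their difference between the groups already known. Their values in that comparison are therefore given as a description, without a test. Each of the 10 genes had 1 probe set that carried its symbol alone, so all 10 were measured.

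Heart grafts of C57BL/6 mice, placed heterotopically in the abdomen of mice of the same strain, were profiled on Affymetrix Mouse Gene 1.0 ST arrays, 1 array for each graft. In the I/R group (n = 3, grafts 2553, 2555 and 2557), the donor heart was kept in University of Wisconsin solution in the cold for 18 h and then implanted. In the non-I/R group (n = 2, grafts 2554 and 2556), the heart was implanted without this storage. Grafts of both groups went through implantation and reperfusion, so both groups share them, and no heart that was never transplanted is among the arrays. According to the labels, grafts were taken 24 h after implantation, while the text of the study gives a later day for the expression arrays. Age, sex and batch are not in the labels.

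TNF is a cytokine made as a membrane protein and cut free at the cell surface. Its receptor Tnfrsf1a is found on most cells and carries a death domain, whereas Tnfrsf1b lacks one. Fas and the TRAIL receptor Tnfrsf10b recruit Fadd and Casp8 through their death domains and can start apoptosis. The mouse receptors Tnfrsf22 and Tnfrsf23 bind TRAIL and have no death domain, for which they are called decoys. Eda2r, the receptor of ectodysplasin A2, Tnfrsf10b and Fas are known targets of p53. Tnfrsf12a (Fn14) is the receptor of TWEAK and is known to be induced in injured tissue. In the heart, TNF signalling is known for depressing contraction and for taking part in the response to ischemia and reperfusion.

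Promoter windows from RefSeq (GRCm38.p6), each reaching from 250 bases before the annotated start to 50 bases from it on, were found for 8 of the 10 genes. The windows of Tnfrsf23 and Eda2r are shown because these genes had the largest positive differences of the 10, that of Fas because it had a lower signal in every I/R graft, and that of Tnf because it is the ligand after which the family is named. Capitals mark the letters of the TATA box, searched as TATAAA, those of the CCAAT box, GGGCGG for the GC box, TGANTCA for the AP-1 site and CACGTG for the E box, each on both strands. The windows lie at chr7:143685826-143686125 on the minus strand (Tnfrsf23), chrX:97377160-97377459 on the minus strand (Eda2r), chr19:34290409-34290708 on the plus strand (Fas) and chr17:35201958-35202257 on the minus strand (Tnf). All are printed 5′ to 3′ in the sense of the gene.
Tnfrsf23: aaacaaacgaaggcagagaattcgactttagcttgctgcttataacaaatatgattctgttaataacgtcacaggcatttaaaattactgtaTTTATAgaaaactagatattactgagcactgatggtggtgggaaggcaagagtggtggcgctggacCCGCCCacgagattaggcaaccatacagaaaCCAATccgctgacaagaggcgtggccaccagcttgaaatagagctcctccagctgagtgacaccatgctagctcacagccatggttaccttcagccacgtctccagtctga
Eda2r: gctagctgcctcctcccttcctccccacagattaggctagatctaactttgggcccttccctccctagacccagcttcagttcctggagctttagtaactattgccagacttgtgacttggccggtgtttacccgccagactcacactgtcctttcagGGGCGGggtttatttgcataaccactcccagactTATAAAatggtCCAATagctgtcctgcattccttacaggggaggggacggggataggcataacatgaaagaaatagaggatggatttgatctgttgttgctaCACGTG
Fas: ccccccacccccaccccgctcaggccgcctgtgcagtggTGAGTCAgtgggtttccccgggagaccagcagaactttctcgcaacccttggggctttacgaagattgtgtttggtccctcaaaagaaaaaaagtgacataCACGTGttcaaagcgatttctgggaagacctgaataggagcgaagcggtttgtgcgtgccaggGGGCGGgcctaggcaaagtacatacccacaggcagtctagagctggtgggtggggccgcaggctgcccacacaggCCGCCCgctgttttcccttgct
Tnf: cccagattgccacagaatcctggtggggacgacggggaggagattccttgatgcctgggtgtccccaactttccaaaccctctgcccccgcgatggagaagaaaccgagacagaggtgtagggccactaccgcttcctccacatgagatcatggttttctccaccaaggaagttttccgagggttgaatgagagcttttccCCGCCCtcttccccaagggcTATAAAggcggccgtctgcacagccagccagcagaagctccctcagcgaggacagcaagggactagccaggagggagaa

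The windows of Tnf and Eda2r hold TATAAA in the sense of the gene, with its first base at position -29 in Tnf and -58 in Eda2r, counted from the annotated start. Tnfrsf23 holds the same letters on the other strand at position -158. The window of Fas holds no such letters, but 2 GC boxes, an E box and the AP-1 letters TGAGTCA at position -211. Over the 8 windows, a TATA box was matched in 3 (13.6% of 32851 windows in the whole table), a CCAAT box in 3 (37.4% of the table) and a GC box in 6 (35.7%). An AP-1 site was matched in 1 window (7.81% of the table) and an E box in 2 (7.15%). The NF-kappaB site and the p53 half-site, both searched on both strands, were matched in 0 of the 8 windows and in 4.51% and 8.36% of the table. None of the printed matches overlaps another. These counts describe letters in short windows and say nothing of binding by a factor.

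Of the 10 genes, 8 had a higher mean signal in the I/R grafts and 2, Fas and Tnfsf10, had a lower one. In 7 of them every I/R graft lay above both non-I/R grafts, an arrangement seen in 15.8% of all 21789 probe sets with 1 symbol. Fas had every I/R graft below both non-I/R grafts, as did 16.2% of all probe sets. Tnfrsf1a and Tnfsf10 had overlapping groups. The median log2 difference, I/R minus non-I/R, was 0.74 over the 10 genes and -0.0079 over all probe sets. At the study's criterion of at least 2-fold with an unadjusted p under 0.05, here limma's, 3 of the 10 genes were higher (Tnfrsf23, Eda2r and Tnfrsf10b) and 0 lower, beside 0.496% of all probe sets higher and 1% lower. Tnfrsf10b did not meet the criterion when graft 2554, 2555 or 2557 was left out, and over all probe sets the number that met it, 326 in both directions, was then 81, 167 and 178. An unadjusted p under 0.05 was reached by 5 of the 10 genes in the higher direction and by 1 in the lower, beside 7.64% and 7.35% of all probe sets. After Benjamini-Hochberg adjustment over all probe sets, limma called 0 of 21789 (0%) at 0.05, with 3265 under an unadjusted 0.05, and the methods' t-test called 2 and 2014. The smallest adjusted p from limma was 0.18. Since the 10 genes were picked with this contrast known, nothing is read from their counts.

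**Figure D1:**
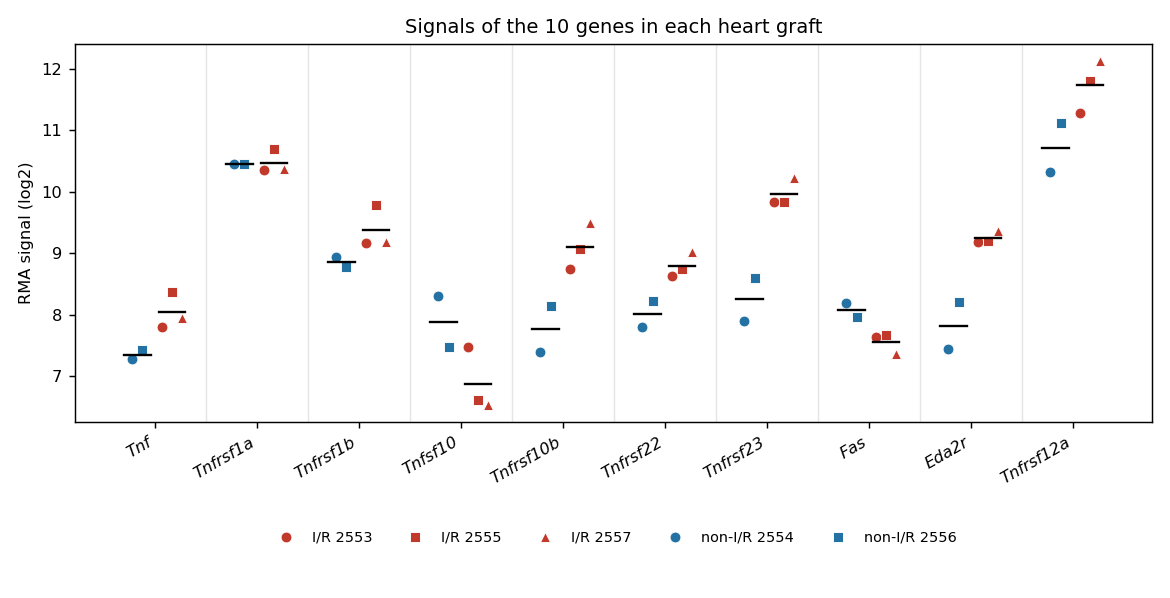
RMA signal on the log2 scale (vertical axis) of each of the 10 genes (horizontal axis) in the 3 I/R grafts (red) and the 2 non-I/R grafts (blue), with a black line at each group mean. The red points lie above both blue points for 7 genes and below both for Fas, the groups overlap for Tnfrsf1a and Tnfsf10, and levels of different genes are not comparable because each has its own probes.

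Tnf had signals of 7.80, 8.37 and 7.95 on the log2 scale in I/R grafts 2553, 2555 and 2557, and of 7.28 and 7.43 in non-I/R grafts 2554 and 2556. The groups did not overlap, and graft 2555 was the highest. The means were 8.04 ± 0.29 (SD, n = 3) and 7.35 ± 0.11 (SD, n = 2), a log2 difference of 0.69 (SE 0.20), or 1.61-fold. Without graft 2555 the difference was 0.52, and with any other graft left out it lay between 0.61 and 0.81. Tnfrsf1b, the TNF receptor without a death domain that is best known from leukocytes and endothelium, had signals of 9.16, 9.78 and 9.19 in the I/R grafts and 8.94 and 8.78 in the non-I/R grafts. Here too graft 2555 stood above the other I/R grafts, which lay close to each other. The log2 difference was 0.52 (SE 0.24) and became 0.32 without graft 2555. Tnfrsf1a, the death domain receptor of TNF, had signals of 10.36, 10.69 and 10.37 in the I/R grafts and 10.45 in both non-I/R grafts, whose values are tied. Its groups overlapped, with a log2 difference of 0.021 (SE 0.13) that was -0.088 without graft 2555. Within a graft, the log2 ratio of Tnfrsf1b to Tnfrsf1a, set to a mean of 0 in the non-I/R grafts, was 0.39, 0.68 and 0.41 in the I/R grafts and 0.082 and -0.082 in the non-I/R grafts. The ratio was thus higher in each I/R graft than in both non-I/R grafts.

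Markers of neutrophils, cells known to make TNF and to carry Tnfrsf1b, were on average highest in the same graft, 2555. Of 16 marker genes measured, 12 had a higher mean signal in the I/R grafts. At an unadjusted p under 0.05, 6 were higher and 1 was lower, beside 7.64% and 7.35% of all probe sets. The lower marker was Lcn2, with a log2 difference of -0.59 (SE 0.14) and every I/R graft below both non-I/R grafts. Mpo, Elane, Camp, Ltf and Retnlg had overlapping groups. The mean deviation of the 16 genes from each gene's own mean was -0.029, 0.55 and 0.20 (log2) in grafts 2553, 2555 and 2557, and -0.46 and -0.26 in grafts 2554 and 2556, so that graft 2555 was highest for these markers as for Tnf and Tnfrsf1b. Their summed linear signal ran from 14717 to 24311 in the I/R grafts and from 12949 to 14561 in the non-I/R grafts. Of 14 macrophage and monocyte markers, 6 had a higher and 8 a lower mean, with 2 higher and 0 lower under an unadjusted p of 0.05 and a median log2 difference of -0.025. The chemokine receptor Ccr2 (0.72, SE 0.20) and the scavenger receptor Msr1 (0.32, SE 0.084) were those 2, and Cd163, a marker of resident macrophages, had a log2 difference of -0.62 (SE 0.31). The 13 endothelial markers were also on average highest in graft 2555, so this is not particular to neutrophil markers. Their mean deviation was -0.077, 0.19 and 0.0062 in grafts 2553, 2555 and 2557, and -0.039 and -0.081 in grafts 2554 and 2556. The part of these cell types in the signals of Tnf and Tnfrsf1b was not tested. In bulk tissue, fewer cells of a type and less RNA per cell cannot be told apart.

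Tnfsf10, which encodes TRAIL, a ligand of death and decoy receptors, had signals of 7.48, 6.61 and 6.54 in I/R grafts 2553, 2555 and 2557 and of 8.31 and 7.47 in non-I/R grafts 2554 and 2556. I/R graft 2553 and non-I/R graft 2556 lay at almost the same level, so the groups overlapped, and each group spread widely. The log2 difference was -1.01 (SE 0.44), and it was -0.59 without graft 2554. Its death receptor Tnfrsf10b ran the other way, with 8.74, 9.08 and 9.49 in the I/R grafts and 7.39 and 8.14 in the non-I/R grafts. The groups did not overlap, although the lowest I/R graft and the higher non-I/R graft were closer to each other than the non-I/R grafts were. The log2 difference was 1.34 (SE 0.35), or 2.52-fold, and it was 0.96 without graft 2554 and 1.71 without graft 2556.

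The decoy receptor gene Tnfrsf23 had the largest difference of the 10. Its signals were 9.83, 9.83 and 10.22 in the I/R grafts and 7.90 and 8.60 in the non-I/R grafts, means of 9.96 ± 0.22 (SD, n = 3) and 8.25 ± 0.49 (SD, n = 2). The log2 difference was 1.71 (SE 0.27), or 3.27-fold, and leaving out 1 graft at a time gave 1.36 to 2.06. Its neighbour Tnfrsf22, the other decoy, had signals of 8.63, 8.75 and 9.02 in the I/R grafts and 7.79 and 8.23 in the non-I/R grafts. These groups did not overlap either, and the log2 difference was smaller, 0.79 (SE 0.20). In the RefSeq table, Tnfrsf26, Tnfrsf22 and Tnfrsf23 follow each other in this order, and the long noncoding RNA E230032D23Rik overlaps Tnfrsf23. These 3 receptor genes are similar in sequence, so signals of their probe sets may be shared, and the size of each difference is uncertain to that extent. Tnfrsf26, whose groups also did not overlap, had a log2 difference of 0.46 (SE 0.058).

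Taking TRAIL with the 5 measured genes of its receptors and their close relatives (Tnfrsf10b, Tnfrsf22, Tnfrsf23, Tnfrsf26 and the soluble decoy osteoprotegerin, Tnfrsf11b), all 5 receptor genes had every I/R graft above both non-I/R grafts, while the ligand gene did not. This arrangement was seen in 15.8% of all probe sets, and 3 of the 5 receptor genes belong to the 10 picked for this contrast. Tnfrsf11b, a secreted protein that also binds RANKL, had a log2 difference of 0.42 (SE 0.093). Within a graft, the log2 ratio of Tnfrsf10b to Tnfsf10, set to a mean of 0 in the non-I/R grafts, was 1.38, 2.59 and 3.08 in the I/R grafts and -0.79 and 0.79 in the non-I/R grafts. Every I/R graft had a higher ratio than both non-I/R grafts, and the non-I/R grafts lay far apart. The ratio of the decoy Tnfrsf23 to the death receptor Tnfrsf10b was 0.61, 0.27 and 0.24 in the I/R grafts and 0.027 and -0.027 in the non-I/R grafts. It was thus higher in all 3 I/R grafts, by less than the ratio of receptor to ligand. The ratio of Tnfrsf23 to Tnfrsf22 was 0.97, 0.84 and 0.96 in the I/R grafts and -0.13 and 0.13 in the non-I/R grafts. Ratios of 2 genes that were both picked for this contrast are a description of the same values.

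**Figure D2:**
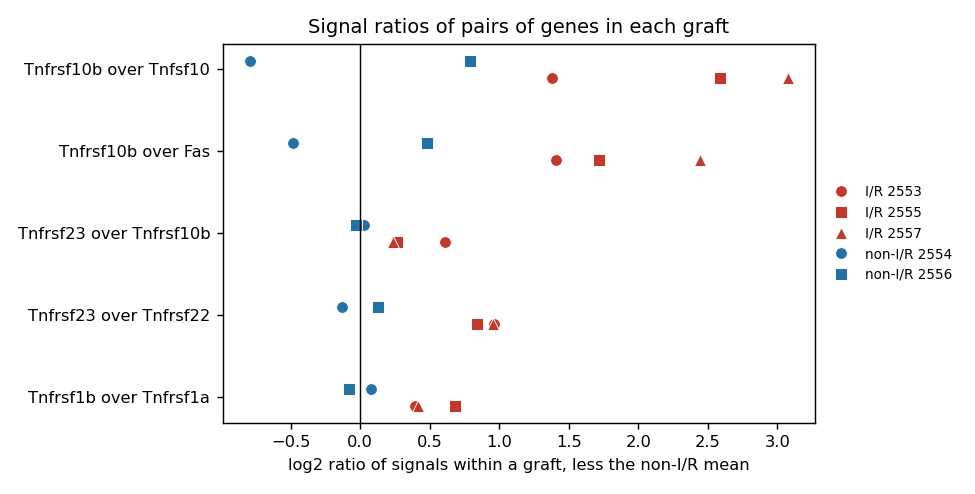
Log2 ratio of the signals of 2 genes within a graft, less the mean of that ratio in the non-I/R grafts (horizontal axis), for 5 pairs of genes (vertical axis), with I/R grafts in red and non-I/R grafts in blue. All red points lie to the right of both blue points for each pair, from 0.24 for Tnfrsf23 over Tnfrsf10b to 3.08 for Tnfrsf10b over Tnfsf10, and the blue points of the upper 2 pairs lie wide apart.

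Fas, the receptor of Fas ligand, had a lower signal in the I/R grafts, whereas the death domain receptor Tnfrsf10b had a higher one and Tnfrsf1a, which also has a death domain, had overlapping groups. Its signals were 7.64, 7.67 and 7.36 in the I/R grafts and 8.19 and 7.97 in the non-I/R grafts. The groups did not overlap, and the log2 difference was -0.52 (SE 0.13), or 1.44-fold lower, between -0.63 and -0.41 with 1 graft left out. Fasl, the gene of its ligand, had values between 4.36 and 4.48 in all 5 grafts, with tied values in the non-I/R grafts. Its groups overlapped, with a log2 difference of -0.026 (SE 0.049). These values lie below 5.55, the lower quartile of mean signal over all probe sets, so little can be read from that difference. Within a graft, the log2 ratio of Tnfrsf10b to Fas, set as above, was 1.41, 1.72 and 2.44 in the I/R grafts and -0.48 and 0.48 in the non-I/R grafts.

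Eda2r had signals of 9.18, 9.19 and 9.36 in the I/R grafts and 7.44 and 8.21 in the non-I/R grafts. The I/R grafts lay within 0.18 of each other and above both non-I/R grafts, which were 0.77 apart. The log2 difference was 1.42 (SE 0.26), or 2.67-fold, and it was 1.03 without graft 2554 and 1.80 without graft 2556. Eda, whose ectodysplasin A2 form is the ligand of Eda2r, had a log2 difference of -0.37 (SE 0.089), with every I/R graft below both non-I/R grafts, and its probe set does not tell its isoforms apart. Tnfrsf12a had the widest spread among the receptors with separated groups, with signals of 11.27, 11.79 and 12.12 in the I/R grafts and 10.32 and 11.11 in the non-I/R grafts. Graft 2553 stood just above graft 2556. The log2 difference was 1.01 (SE 0.39), or 2.02-fold, and was 0.61 without graft 2554. Its ligand gene Tnfsf12 was not analysed here, because no probe set carried its symbol alone. In 8 of the 10 genes, non-I/R graft 2554 lay farther from the I/R mean than graft 2556 did.

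**Figure D3:**
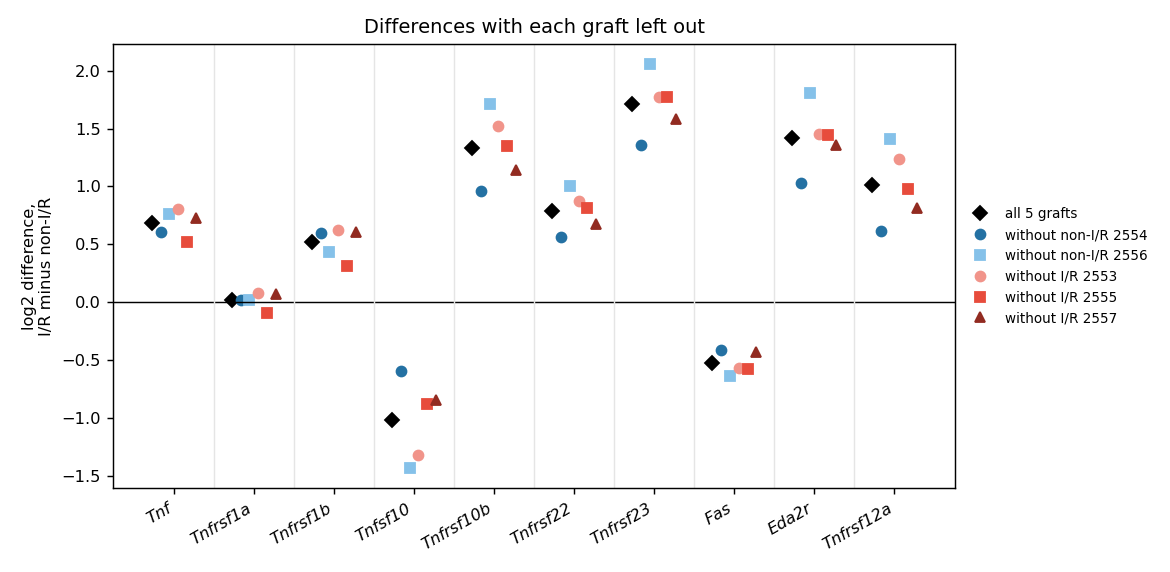
Log2 difference, I/R minus non-I/R (vertical axis), of the 10 genes (horizontal axis) with all 5 grafts (black diamonds) and with each graft left out (colours). Tnfrsf23, Eda2r, Tnfrsf10b, Tnfrsf12a and Tnfrsf22 are lowest without non-I/R graft 2554 and highest without non-I/R graft 2556, Tnf and Tnfrsf1b are lowest without I/R graft 2555, and Tnfrsf1a alone crosses 0.

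Among the genes of the whole array, those with signals most like 3 of the receptors over the 5 grafts were found by the root mean square difference of values centred on each gene's mean, out of 19937 other genes. Closest to Tnfrsf10b were Tinagl1, which encodes an extracellular matrix protein (0.051), the serotonin receptor Htr2a (0.060) and Relt, another TNF receptor family gene (0.068). Closest to Tnfrsf23 were the lysyl oxidase family gene Loxl4 (0.098), the lipid phosphatase Plpp2 (0.15) and the ubiquitin ligase Trim16 (0.15). Closest to Eda2r were the tubulin Tubb6 (0.10), the microtubule-associated protein Map1b (0.11) and Plpp2 (0.13). Plpp2 thus stood among the nearest 3 of both Tnfrsf23 and Eda2r. With 5 arrays that share 1 contrast, such closeness is a description of the same few values.

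Other ligands and receptors of the superfamily had differences in both directions. Of 46 ligand and receptor genes listed, 44 were measured, and of the 34 outside the 10 genes, 16 had a higher mean in the I/R grafts, 15 a lower and 3 an equal one. Their median log2 difference was 0.00, beside 0.74 for the 10 genes, which were picked for this contrast. The 3 equal genes, Tnfsf8, Tnfrsf17 and Tnfrsf18, had the same value on all 5 arrays. Others, such as Cd40lg, Cd70 and Tnfsf4, had means below 5.55, the lower quartile of all probe sets. A difference near 0 in such genes says little. With only probe sets above the median signal, the list medians were 0.37 for receptors and -0.36 for ligands, the 10 genes included. All of the 10 genes passed this filter, and the only other ligand genes that passed were Eda and Tnfsf11. These medians thus lean on genes picked for this contrast and do not describe the rest of the superfamily. At an unadjusted p under 0.05, 5 of the 34 were higher (Tnfsf9, Tnfsf14, Tnfrsf26, Tnfrsf11b and Relt) and 3 lower (Eda, Tnfsf11 and Tnfrsf19). Of all probe sets, 7.64% were higher and 7.35% lower at that level. Of the 34, 1 also reached 2-fold, beside 0.496% of all probe sets higher and 1% lower. That gene was Relt, a receptor expressed in blood cells, with 8.01, 8.23 and 8.82 in the I/R grafts and 6.69 and 7.32 in the non-I/R grafts. Its groups did not overlap, and the log2 difference was 1.35 (SE 0.35; limma, adjusted p = 0.289). Tnfsf14 (LIGHT), a ligand of activated T cells, had a log2 difference of 0.63 (SE 0.12), Tnfsf9, the ligand of 4-1BB, one of 0.30 (SE 0.035), and Lta, which also binds the TNF receptors, one of -0.15 (SE 0.078). None of these genes passed after adjustment over all probe sets.

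**Figure D4:**
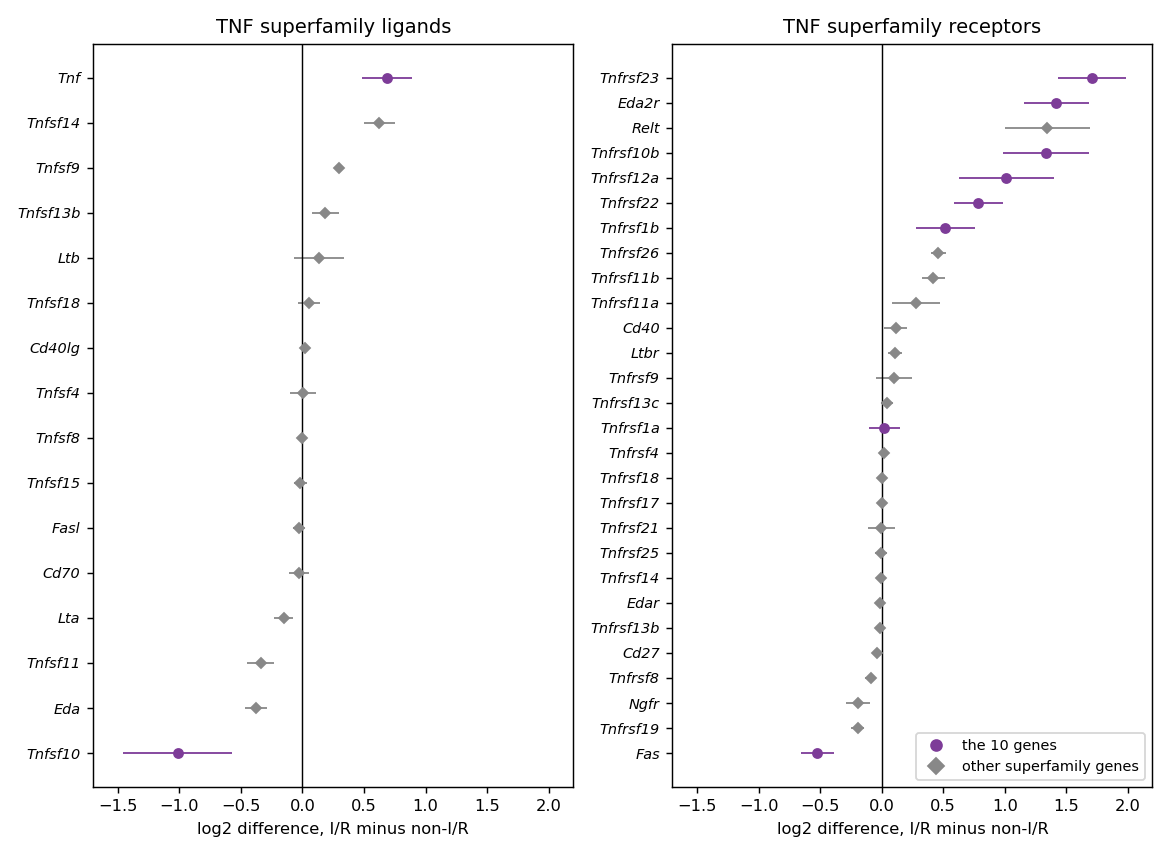
Log2 difference, I/R minus non-I/R, with its SE as a bar (horizontal axis), of 16 ligand genes (left) and 28 receptor genes (right) of the superfamily, ordered by difference, with the 10 genes as purple circles and the others as grey diamonds. Tnf and Tnfsf10 form the ends of the ligand panel, Tnfrsf23 at 1.71 and Fas at -0.52 those of the receptor panel, and most other genes lie near 0.

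Downstream of the receptors, 21 of 27 measured genes of adaptors and proximal signalling had a higher mean in the I/R grafts, and 18 had overlapping groups. At an unadjusted p under 0.05, 5 were higher and 0 lower, beside 7.64% and 7.35% of all probe sets. The median log2 difference was 0.13. That median was 0.085 without graft 2554. Tradd, the adaptor of Tnfrsf1a, had a log2 difference of 0.37 (SE 0.067), Traf2, the ubiquitin ligase that binds both TNF receptors, one of 0.60 (SE 0.15), and Tnip1, which restrains NF-kappaB, one of 0.50 (SE 0.14). Fadd, the adaptor of Fas and Tnfrsf10b, had overlapping groups and a log2 difference of 0.19 (SE 0.11). Ripk1, Traf3 and Chuk were not analysed here.

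The list of the extrinsic death pathway also held genes of mitochondrial apoptosis and of necroptosis, and inhibitors of death. Of its 13 measured genes, 10 had a higher mean, and the median log2 difference was 0.26. At an unadjusted p under 0.05, 8 were higher and 1 was lower, beside 7.64% and 7.35% of all probe sets. These counts are of the mixed list and not of death receptor signalling alone. Bid, which links death receptors to mitochondria, had signals of 7.15, 7.12 and 7.16 in the I/R grafts and 6.56 and 6.79 in the non-I/R grafts, so that the I/R grafts lay close together above both others. Its log2 difference was 0.47 (SE 0.079). Mlkl, the effector of necroptosis, had one of 0.41 (SE 0.088), the initiator caspase gene Casp8 one of 0.26 (SE 0.084) and Cflar, the inhibitor of Casp8 at the receptor, one of 0.40 (SE 0.13). The 1 lower gene was Cycs, cytochrome c, at -0.47 (SE 0.079), which acts in respiration as well as in apoptosis.

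Genes that control the release of TNF from the cell and the stability of its mRNA differed in both directions. Of 15 measured, 4 had a higher and 2 a lower signal at an unadjusted p under 0.05, beside 7.64% and 7.35% of all probe sets. The median log2 difference was 0.14. The lower genes were Mapkapk2, the kinase that stabilises Tnf mRNA, at -0.23 (SE 0.048), and Sppl2a, a protease that cuts the membrane stub of TNF, at -0.16 (SE 0.033). Frmd8, a partner of the TNF sheddase complex, had a log2 difference of 0.14 (SE 0.031).

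Of 26 measured NF-kappaB target genes that TNF is known to induce, 23 had a higher mean in the I/R grafts. At an unadjusted p under 0.05, 6 were higher and 0 lower, beside 7.64% and 7.35% of all probe sets. In 18 of the 26 the groups overlapped, among them Il6, Ptgs2, Icam1 and Nfkbia. Sod2, at -0.51 (SE 0.19), had every I/R graft below both non-I/R grafts. The mean deviation of this list was -0.050, 0.36 and 0.053 in grafts 2553, 2555 and 2557, and -0.11 and -0.25 in grafts 2554 and 2556, so graft 2555 stood apart here as it did for Tnf. The median log2 difference was 0.24, but 0.099 without graft 2555, 0.11 without graft 2556 and 0.41 without graft 2554. Csf1, a macrophage growth factor, had a log2 difference of 0.59 (SE 0.12), the stress response gene Ier3 one of 0.61 (SE 0.13) and Plau, urokinase, one of 0.84 (SE 0.21). The 1 gene of the list at 2-fold was Mmp9, a gelatinase that neutrophils store, with 10.31, 10.97 and 10.43 in the I/R grafts and 8.65 and 9.59 in the non-I/R grafts. Its log2 difference was 1.45 (SE 0.39; limma, adjusted p = 0.29), and the neutrophil markers given above were on average highest in the same graft, 2555. Their part in this difference was not tested.

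The p53 targets did not share 1 direction. Cdkn1a and Bax, both listed targets, were not analysed here, because no probe set carried either symbol alone. Outside Eda2r, Tnfrsf10b and Fas, 18 were measured, of which 11 had a higher and 7 a lower mean, and a median log2 difference of 0.18. Under an unadjusted p of 0.05 there were 4 higher genes and 2 lower ones, beside 7.64% and 7.35% of all probe sets. Plk2, a stress-induced kinase, had signals of 10.25, 10.80 and 11.13 in the I/R grafts and 7.91 and 8.63 in the non-I/R grafts. The groups lay far apart, and the log2 difference was 2.46 (SE 0.38; limma, adjusted p = 0.282). Zmat3, an RNA-binding protein of the p53 pathway, had one of 0.48 (SE 0.076), Phlda3, an inhibitor of Akt, one of 0.67 (SE 0.16) and Mdm2, the ubiquitin ligase of p53, one of 0.28 (SE 0.085). The lower genes were Sesn1, an antioxidant regulator, at -1.15 (SE 0.33), and the cyclin gene Ccng1 at -0.40 (SE 0.12). With these 3 genes, the 21 measured targets had a median of 0.28. Fas, at -0.52, thus lay on the lower side of the p53 list, and Eda2r, at 1.42, and Tnfrsf10b, at 1.34, on the higher side.

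Marker genes of cell types differed along with these values. All 15 ventricular cardiomyocyte markers measured, the defining genes of the labelled tissue, had a lower mean in the I/R grafts, with a median log2 difference of -0.54. At an unadjusted p under 0.05, 12 of them were lower, beside 7.35% of all probe sets. Their summed linear signal was 69401 to 84746 in the I/R grafts against 108760 to 120740 in the non-I/R grafts. Atrial markers varied within both groups, with mean deviations of -0.66, 0.63 and -0.19 in grafts 2553, 2555 and 2557, and 1.07 and -0.85 in grafts 2554 and 2556. Leaving out graft 2554 alone gave log2 differences of -0.59 for Tnfsf10 and 1.03 for Eda2r. Leaving out grafts 2554 and 2555, a setting chosen after seeing the data, left 1 non-I/R graft. Tnfsf10 then had a log2 difference of -0.46, Eda2r one of 1.06 and the 10 genes a median of 0.51. Of the 10 genes 1, Eda2r, then met the 2-fold criterion, as did 26 of all 21789 probe sets. Of 12 fibroblast markers 9 had a lower mean, and none of the 13 endothelial markers reached an unadjusted p under 0.05. The part of these shifts in the signals of the 10 genes was not tested. The labels do not say whether grafts came from separate batches, and p-values measure only the spread between these 5 samples, so their number limits the precision. There are 10 ways of splitting 5 grafts 3 against 2, so an exact two-sided permutation test could not give a p below 0.1.

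**Figure D5:**
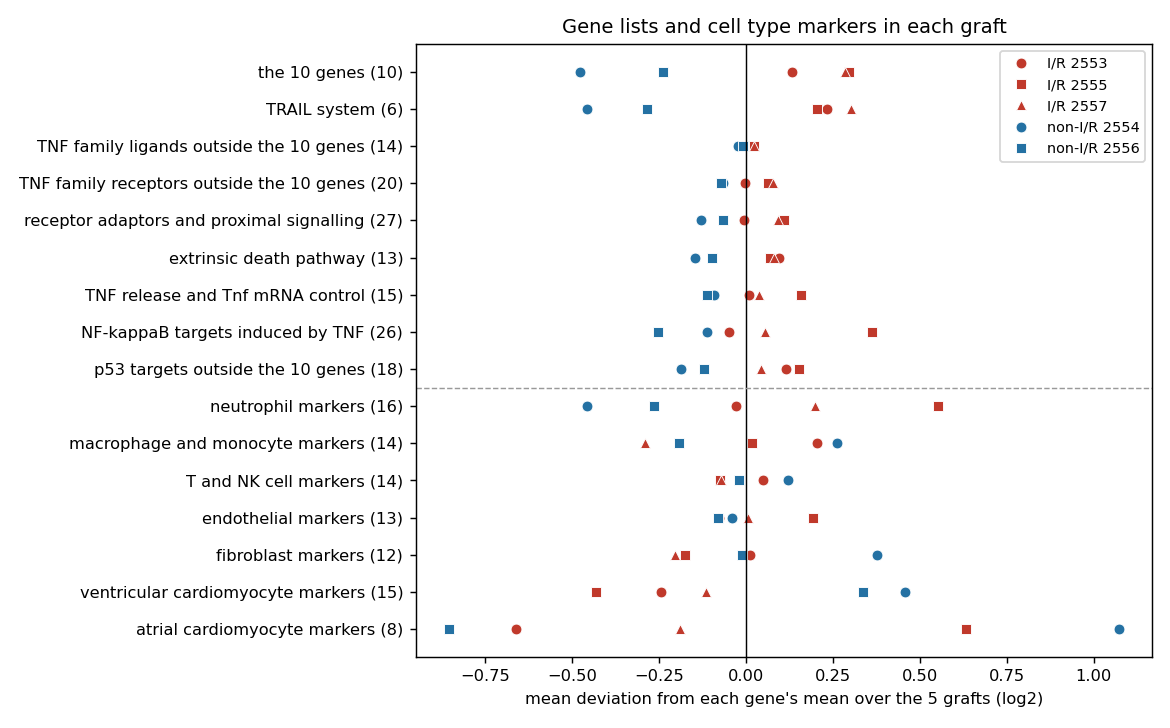
Average over a gene list of the deviations from its genes' means over the 5 grafts (log2, horizontal axis), by list with its number of measured genes (vertical axis), in I/R grafts (red) and non-I/R grafts (blue), with cell type markers below the dashed line. The 10 genes separate the groups, and graft 2555 is highest for several lists, among them NF-kappaB targets, neutrophil markers and endothelial markers. Ventricular markers are lower in all I/R grafts, and atrial markers are highest in grafts 2554 and 2555.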

How the data were processed

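Gene expression was measured in 5 heart grafts, and the authors deposited log2 values in 1 table of 35556 probe sets. Partek and RMA are named in the processing notes of the submitters, and RMA corrects the background, brings the arrays to a common distribution and yields 1 log2 value per probe set, so a shift shared by most genes can be hidden. The versions and the genome build are not given in the sources used here. Array medians lay between 6.58 and 6.65.

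The platform annotation gave 1 gene symbol for 21789 probe sets (19938 genes), several for 1621 and none for 12146, and only the first kind was used. Values were tied between arrays in 11715 of these and equal on all 5 arrays in 757. Where several probe sets carried a gene's symbol, that of the highest mean over all arrays stood for it in lists. Groups were taken from the source name of each sample, which gives the storage for the I/R samples and its absence for the others. The treatment text, which is the same for all samples and describes cold storage, does not separate the groups. Differences were fitted with limma 3.58.1 in R 4.3.3 (lmFit, eBayes, no filter, statmod 1.5.0) and adjusted by the Benjamini-Hochberg method over all 21789 probe sets at 0.05. Summaries and plots used Python 3.11.15, pandas 2.3.3, numpy 2.4.6 and matplotlib 3.10.9. The fit was tested on simulated data.

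The 10 genes, the pathway and marker lists and the tests were chosen with earlier results of these data known. Named genes are the 10 genes, the 3 genes of each pathway list with the smallest p, the partners of the 10 genes and, for each of the 10 at the 2-fold criterion, the 3 genes with the most similar signals. Genes named beyond this, such as Relt, Mmp9, Ccr2, Msr1, Cd163, Phlda3, Mdm2, Sesn1, Ccng1, Tnfsf11 and Tnfrsf19, were chosen after their values were seen, to complete a small count or describe a list. Alternatives were 3 other normalizations, a filter on dim probe sets, other variance settings, the methods' t-test, other choices of probe sets and leaving out each graft. The miRNA arrays and other assays of the study were not analysed here.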

Additional observations from a re-analysis of the deposited data

How the results depend on the processing

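The number of the 10 genes at the 2-fold criterion, 3 as reported, was 5 of 10 with array weights (390 of all 21789 probe sets), 5 of 9 with only probe sets without tied values (399 of 10074), 1 without grafts 2554 and 2555, and 2 to 4 with 1 graft left out. The genes added in the first and second of these settings were Tnfrsf12a, which was higher, and Tnfsf10, which was lower. The median log2 difference of the 10 genes was 0.51 without grafts 2554 and 2555 and 0.60 to 0.89 with 1 graft left out. Over all probe sets, 326 met the criterion, 26 without grafts 2554 and 2555, and 81 (without 2554) to 492 (without 2556) with 1 graft left out, among them 167 without 2555 and 178 without 2557. The median of the ligand list, 0.0028, was -0.36 with only probe sets above the median signal, -0.031 with only untied probe sets, -0.032 with quantile normalization and -0.011 to 0.012 with 1 graft left out. That of the receptor list, 0.031, was 0.37, 0.46 (above the median signal, untied) and 0.00 to 0.070. Adaptors had 0.20 (untied) and 0.085 to 0.19, the death pathway 0.37 (untied), 0.22 (without grafts 2554 and 2555) and 0.20 to 0.32, and all 21 measured p53 targets, Eda2r, Tnfrsf10b and Fas included, with 0.28 as reported, had 0.44 (above the median signal), 0.48 (untied) and 0.23 to 0.35. With 1 graft left out, TNF release genes had 0.11 to 0.18 and NF-kappaB targets 0.099 to 0.41. The filters test fewer genes, and above the median signal the ligand list held only Tnf, Tnfsf10, Eda and Tnfsf11. The cause of the other shifts was not tested. Leaving out grafts 2554 and 2555 together and leaving out tied probe sets were chosen after seeing the data. Of 169 values of the 10 genes under 17 other settings, 166 kept their sign, and the exceptions were all of Tnfrsf1a. Leaving out a graft of the non-I/R group leaves 1 sample there, which limma then assumes to vary like the others. No paired analysis was possible because the labels give no replicate numbers, and those used here only count samples in accession order.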
